A study of Mus musculus with 4 samples.

Results

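Zbtb16, Maf, Sox13, Tbx21, Id2, Id3 and Blk are lineage factors of innate-like and gamma-delta T cells, and these 7 of the 32285 counted genes were followed cell by cell in thymocytes of wild-type (WT) mice and of mice labelled PD-1 knockout. The genes were listed by name, with no threshold on their values. All mice were C57BL/6J animals aged 3 weeks, and the thymi of 4 animals were pooled before CD8-bearing cells were depleted. Live CD4+ HSA+ CD73- cells were then sorted as CD25- (CD4 single-positive thymocytes) or as CD25+ (regulatory T cells and their CD25+ precursors), with 1 library for each of the 4 combinations of gate and genotype label. The list of stains names CD74 where the sort names CD73. The sources used here do not say if 1 pool of thymi served both gates. Each difference is therefore between single libraries of pooled thymi and has no replicate check.

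T cell precursors in the thymus become alpha-beta or gamma-delta T cells, and some of both kinds leave with effector programmes already set, which is why they are called innate-like. Zbtb16 encodes PLZF, the zinc finger factor that drives natural killer T cells and other innate-like T cells. Sox13, Maf and the kinase Blk belong to the interleukin 17 type of gamma-delta T cell, Tbx21 encodes T-bet of the type 1 programme, and Id2 and Id3 are inhibitors that bind E proteins, the basic helix-loop-helix factors of early lymphocytes.

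The 4 libraries kept 1716 to 9236 cells after filtering, with medians of 4497 to 6299 UMIs per cell (unique molecular identifiers, each marking 1 captured transcript). Levels are given in CPM, a gene's UMIs scaled to the summed UMIs of all genes. Pdcd1, which encodes PD-1, had 248 UMIs in the WT and 304 UMIs in the knockout-labelled CD25- library, or 18.3 CPM (16.1 to 20.7) against 27.2 CPM (24.3 to 30.5). The CD25+ libraries held 866 UMIs with the WT and 1302 UMIs with the knockout label, or 16.0 CPM (15.0 to 17.1) against 18.9 CPM (17.9 to 19.9). Pdcd1 RNA was thus not lower in the knockout-labelled libraries, and whether the counted 5′ ends lie outside the deleted part was not tested, so these libraries are named by their label. Between any pair of libraries, 4 to 96 cell barcodes were shared. All intervals are 95% intervals that cover counting error only.

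Cells were read in 2 classes by their own transcripts. The first class had no Cd4 UMI and at least 1 Il2ra UMI (CD25), and it made up 77.2% of the WT CD25+ cells (5907 cells, median 6073 UMIs) and 85.3% of the knockout-labelled CD25+ cells (7874 cells, median 6167 UMIs). Although sorted as CD4+, these Cd4-negative cells carried transcripts of early double-negative thymocytes: Ptcra, the pre-T cell receptor chain, was detected in 79.6% of WT and 81.5% of knockout-labelled cells, and Rag1, the recombinase, in 65.2% and 65.5%. Foxp3, the factor of regulatory T cells, was detected in 4.01% of WT and 2.31% of knockout-labelled cells of the class. Only 6 WT and 4 knockout-labelled cells of the CD25- gate met this rule, and they were not compared. The second class had at least 1 UMI each of Cd4 and of Trac, the alpha-chain constant gene, and held 1100 WT and 765 knockout-labelled CD25- cells and 560 WT and 304 knockout-labelled CD25+ cells (medians 5862 to 7345 UMIs). The genes of these rules are not results.

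Zbtb16 was the member that differed between the labels by at least 1.5-fold, with an interval that excludes 1, among Cd4-negative cells. It had 6 UMIs in 5 of 5907 WT cells and 286 UMIs in 219 of 7874 knockout-labelled cells. These sums are 0.136 CPM (0.0498 to 0.295) for WT and 4.67 CPM (4.14 to 5.24) for the knockout label, a 34.4-fold higher value (15.6 to 94.5). The intervals of the libraries lie far apart, and by this ratio Zbtb16 ranked 7 among the 14280 genes with at least 20 UMIs over both libraries. The gene (ENSMUSG00000066687) lies on the minus strand of chromosome 9, from 48654297 to 48836222 (mm10).

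Counting a gene as higher or lower where its CPM differed by at least 1.5-fold with an interval that excludes 1, 1 of the 7 members was higher in the knockout-labelled Cd4-negative cells, against 5.53% of all genes tested. None of the 7 was lower, against 4.58% of all genes. All 7 members reached the 20 UMIs. By fold alone 2 of the 7 were higher, Zbtb16 and Tbx21, against 7.61% of genes.

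**Figure D1:**
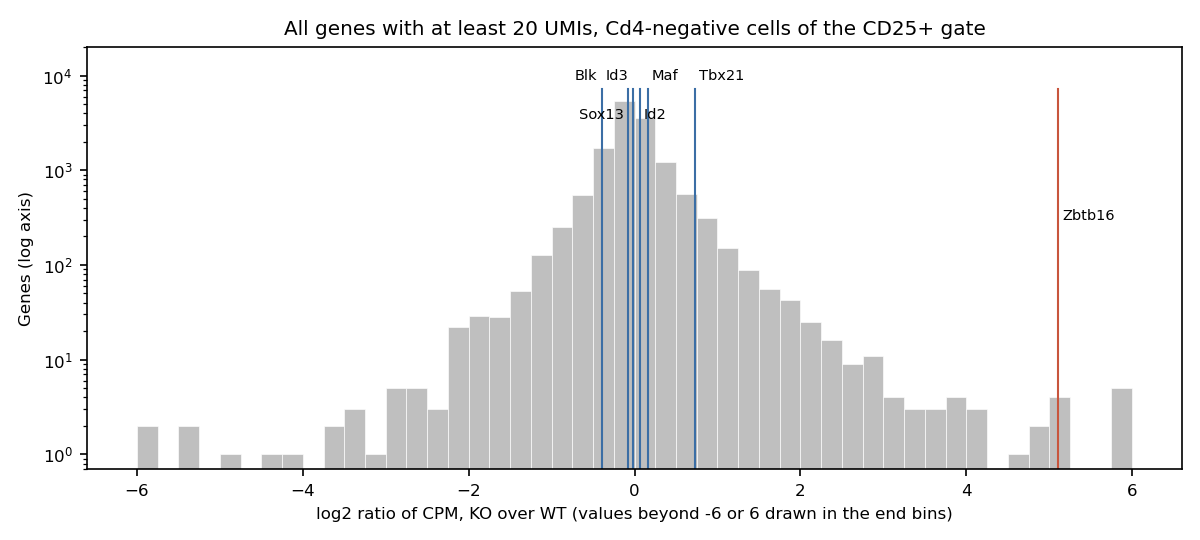
Log2 ratios of knockout-labelled over WT CPM (horizontal axis) for the 14280 genes with at least 20 UMIs among Cd4-negative cells of the CD25+ gate, as numbers of genes on a log axis, with the 7 factors marked. Zbtb16 stands at 5.10, while the other 6 factors lie between -0.40 (Blk) and 0.73 (Tbx21).

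Zbtb16 RNA was spread thinly over the positive cells. Of the 219 knockout-labelled cells, 177 had 1 UMI, 26 had 2 and 16 had at least 3, with at most 7 in a cell. The share of cells with a UMI was 2.78% in the knockout-labelled and 0.0846% in the WT library. With every cell thinned to 1500 UMIs, the shares were 0.515% (40 of 7774 cells) and 0.0172% (1 of 5811 cells). In cells of the Cd4 and Trac class of the same libraries the shares were 0.329% (1 of 304 cells, median 6675 UMIs) in the knockout-labelled library and 0.179% (1 of 560 cells, median 5862 UMIs) in WT. The interval of the knockout-labelled Cd4-negative share (2.43% to 3.17%) lies above the intervals of these shares, which reach up to 1.82% and 0.991%. The interval of the WT Cd4-negative share (0.0275% to 0.197%) lies inside both of them, so its order to them cannot be read. All 5 WT cells carried Cpa3, which 528 of the 5907 WT cells did. WT cells with Cpa3 were also deeper, with a median of 12116 UMIs against 5846 without, and the part of depth was not tested.

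The difference in Zbtb16 appeared in each subset of Cd4-negative cells that was read. Among cells without a Rag1 UMI, Zbtb16 had 6 UMIs in WT (0.365 CPM) and 161 UMIs with the knockout label (7.20 CPM), 19.7-fold higher (8.88 to 54.6). Among cells with Rag1 it had 0 UMIs in WT and 125 UMIs with the knockout label (3.21 CPM), at least 29.7-fold higher when the WT sum is set to a floor of 3 UMIs. All 6 WT UMIs came from cells that also carried Trdc, the delta-chain constant gene, where the knockout-labelled level was 6.42 CPM against 0.287 CPM in WT (22.4-fold, 10.1 to 61.8). Without Trdc the knockout-labelled level was 2.98 CPM (93 UMIs) against 0 in WT, at least 23.1-fold higher.

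Within the knockout-labelled library Zbtb16 was 2.24-fold higher in cells without than with Rag1 (1.76 to 2.86), and 2.16-fold higher in cells with than without Trdc (1.68 to 2.79). A split by Cpa3, a protease gene of early progenitors and mast cells, was added after the values had been seen. Median depths of knockout-labelled cells with and without Cpa3 were 12817 and 5873 UMIs, and with and without Trdc 9113 and 5340 UMIs. Zbtb16 was 8.05-fold higher in knockout-labelled cells with Cpa3 than in those without (6.30 to 10.3). It was at 16.97 CPM in 780 knockout-labelled cells with Cpa3 (118 positive) and at 0.867 CPM in 528 WT cells with Cpa3 (5 positive), a 19.6-fold difference (8.82 to 54.1). In cells without Cpa3 it was at 2.11 CPM (107 UMIs) against 0 UMIs in WT, at least 26.2-fold higher. The summed level of 7 early T progenitor markers, Cpa3 and Kit among them, was 132 CPM for WT and 124 CPM for the knockout label, with all 7 detected in both.

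**Figure D2:**
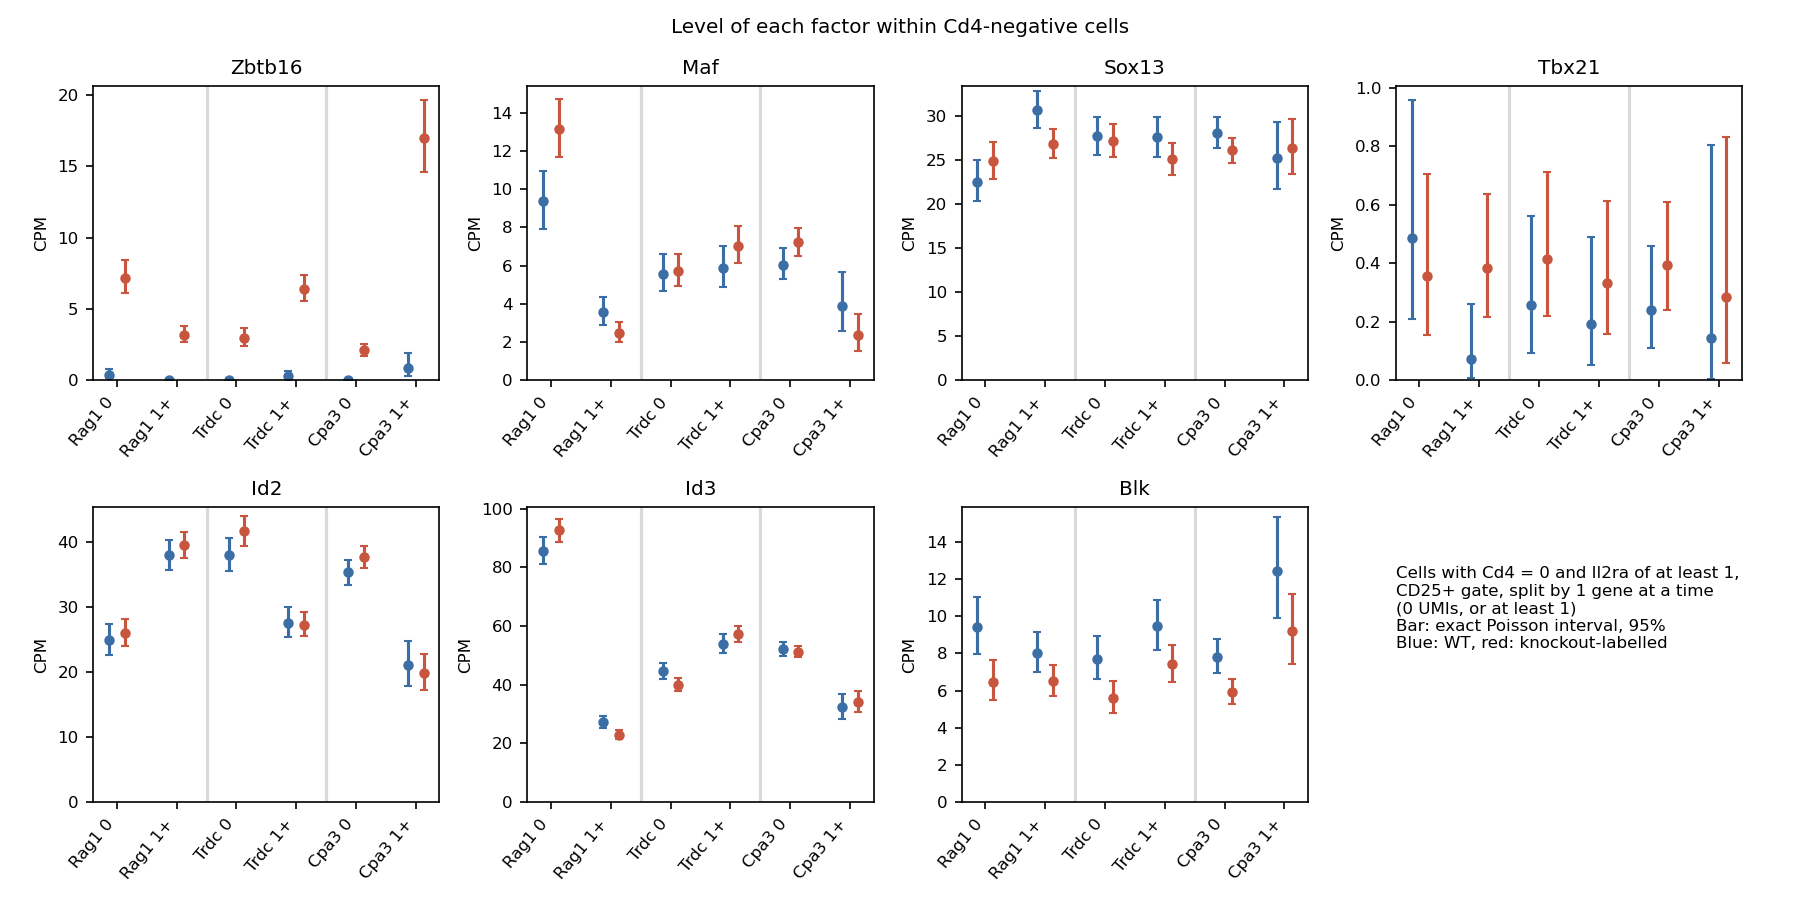
Level of each of the 7 factors in CPM (vertical axis, one panel per gene) in Cd4-negative cells of the CD25+ gate split by Rag1, Trdc and Cpa3 into cells with 0 and with at least 1 UMI; points are WT and knockout-labelled libraries and bars 95% Poisson intervals. Zbtb16 is at 16.97 CPM in knockout-labelled cells with Cpa3, while Id3 and Maf are higher without than with Rag1 in both libraries.

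The 219 Zbtb16-positive knockout-labelled cells were deeper than the other 7655 (medians 12701 and 6078 UMIs). They are compared by CPM, which scales for depth but does not undo the choice of deeper cells. Cpa3 was at 280 CPM in them and at 38.5 CPM in the others (7.26-fold, 6.71 to 7.86), and Kit, the stem cell factor receptor, was 2.48-fold higher (2.16 to 2.85). Rag1 was lower, at 94.96 against 261 CPM, and Ptcra at 175 against 543 CPM. Trdc was at 195 against 128 CPM and Tcrg-C1, a gamma-chain constant gene, at 584 against 231 CPM. Trac had 2 UMIs and Foxp3 1 UMI in all 219 cells. The positive cells thus had higher levels of progenitor and gamma-delta receptor transcripts, and hardly any UMIs of Trac or Foxp3. The part of depth in these differences was not tested.

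Other members were lower or alike in the Zbtb16-positive cells. Maf was at 1.31 CPM in them (4 UMIs) and at 6.65 CPM in the others, a ratio of 0.198 (0.0536 to 0.510). Id2 was at 13.5 against 35.7 CPM (0.378, 0.270 to 0.514) and Id3 at 33.5 against 49.1 CPM (0.683, 0.555 to 0.832). Sox13 (27.3 and 26.1 CPM) and Blk (6.24 and 6.51 CPM) had intervals of their ratios that include 1, and Tbx21 had no UMI. By the ratio of CPM with 5 added, the genes highest in Zbtb16-positive cells were Hbb-bt (a globin gene), Ifitm1, Cpa3, Adgrg3 and Igfbp4. Hbb-bt is an erythroid gene, and over all Cd4-negative cells the 4 erythroid markers summed to 15.9 CPM for WT and 11.4 CPM for the knockout label, with Hba-a1 and Hba-a2 at 0 in both. Their part in the result was not tested.

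Id2 and Id3 were close between the labels in Cd4-negative cells. Id2 (ENSMUSG00000020644, chromosome 12, 25093799 to 25097140, minus strand) had 1462 UMIs in WT and 2118 UMIs with the knockout label (33.1 and 34.6 CPM), a ratio of 1.05 (0.978 to 1.12). Id3 (ENSMUSG00000007872, chromosome 4, 136143497 to 136145755, plus strand) had 2168 and 2961 UMIs (49.0 and 48.3 CPM), a ratio of 0.986 (0.932 to 1.04). Both ratios have intervals that include 1 and lie well inside 1.5-fold. Thinned to 1500 UMIs, Id2 was found in 5.52% of WT and 6.41% of knockout-labelled cells, and Id3 in 5.46% and 4.91%.

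The 2 inhibitors lay on opposite sides of the Rag1 split. Id3 was at 85.7 CPM in WT cells without Rag1 and at 27.3 CPM in those with Rag1 (3.14-fold, 2.87 to 3.44), and at 92.6 and 22.9 CPM in the knockout-labelled library (4.04-fold, 3.74 to 4.38). Id2 went the other way, at 24.9 CPM without and 37.9 CPM with Rag1 in WT (a ratio of 0.656) and at 26.0 and 39.5 CPM in the knockout-labelled library (0.658). Id2 was also lower in cells with Trdc than in those without, by ratios of 0.726 in WT (0.652 to 0.807) and 0.656 in the knockout-labelled library (0.600 to 0.716). Rag1 is itself a known E protein target, and median depths without and with Rag1 were 5598 and 6178 UMIs in WT and 6112 and 6183 UMIs in the knockout-labelled library.

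Among the Rag1-split cells, the summed level of Id3 differed slightly between the labels in opposite directions. Its knockout-labelled over WT ratio was 1.08 (1.01 to 1.16) without Rag1 and 0.839 (0.761 to 0.926) with Rag1. Neither reaches 1.5-fold.

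Maf, the transcription factor c-Maf (ENSMUSG00000055435, chromosome 8, 115682942 to 115707794, minus strand), had 253 UMIs in WT and 391 UMIs in knockout-labelled Cd4-negative cells (5.72 and 6.38 CPM), a ratio of 1.12 (0.95 to 1.31). The antisense gene Gm15655 overlaps Maf, and the sources used here do not say if counting used strand, so the Maf counts are uncertain. Within cells without Rag1, Maf reached 9.36 CPM with the WT and 13.2 CPM with the knockout label (1.40, 1.15 to 1.72). With Rag1 it was at 3.56 and 2.49 CPM, a ratio of 0.699 (0.523 to 0.935). Like Id3, Maf was thus higher without than with Rag1, 2.63-fold in WT and 5.28-fold in the knockout-labelled library. The 9 myeloid and dendritic cell markers, which can accompany Maf, summed to 199 CPM for WT (8 detected, Siglech at 0) and to 159 CPM for the knockout label (9 detected). Their part in the result was not tested.

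Sox13 (ENSMUSG00000070643, chromosome 1, 133382303 to 133424377, minus strand), an HMG-box factor of gamma-delta T cells, had 1222 UMIs in WT and 1601 UMIs in knockout-labelled Cd4-negative cells (27.6 and 26.1 CPM), a ratio of 0.946 (0.877 to 1.02). It was found in 16.6% and 16.9% of the cells, and in 4.01% and 3.85% after thinning to 1500 UMIs. Sox13 RNA was not higher in cells with Trdc than in those without: the ratio was 0.996 (0.888 to 1.12) in WT and 0.923 (0.836 to 1.02) in the knockout-labelled library. Without Rag1 it was at a ratio of 0.736 to the cells with Rag1 in WT and of 0.929 in the knockout-labelled library.

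Blk, a Src family kinase (ENSMUSG00000014453, chromosome 14, 63372836 to 63417037, minus strand), had 378 UMIs in WT and 398 UMIs in knockout-labelled Cd4-negative cells (8.55 and 6.50 CPM). The ratio of 0.760 (0.659 to 0.877) has an interval that excludes 1 but does not reach 1.5-fold. The ratio lay between 0.688 and 0.810 in all 6 groups made by the Rag1, Trdc and Cpa3 splits, and its interval reached 1.00 only in cells with Cpa3. Blk was 1.59-fold higher with than without Cpa3 in WT and 1.55-fold higher in the knockout-labelled library. After thinning, 1.12% of WT and 0.733% of knockout-labelled cells had a Blk UMI. B cells also express Blk: of their 6 markers, Pax5 was at 0 in both libraries, and Ms4a1 was at 0 in WT with 3 UMIs in the knockout-labelled library. Their sum was 77.6 CPM for WT and 73.1 CPM for the knockout label, of which Cd79b gave 77.2 and 72.8 CPM.

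Tbx21 (ENSMUSG00000001444, chromosome 11, 97098071 to 97115331, minus strand) was near the limit of detection, with 10 UMIs in 10 WT and 23 UMIs in 22 knockout-labelled Cd4-negative cells. Its ratio of 1.66 had an interval from 0.760 to 3.91, so a difference was not detectable at this depth. The 8 natural killer and innate lymphoid markers, cells that can express Tbx21, summed to 85.5 CPM in WT (5 detected) and 67.1 CPM with the knockout label (4 detected). Gata3, which T cell precursors also express, gave 77.0 and 62.1 CPM of this and Tyrobp 8.34 and 4.86 CPM, while Ncr1, Klre1 and Il22 were at 0 in both libraries. Their part in the result was not tested.

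**Figure D3:**
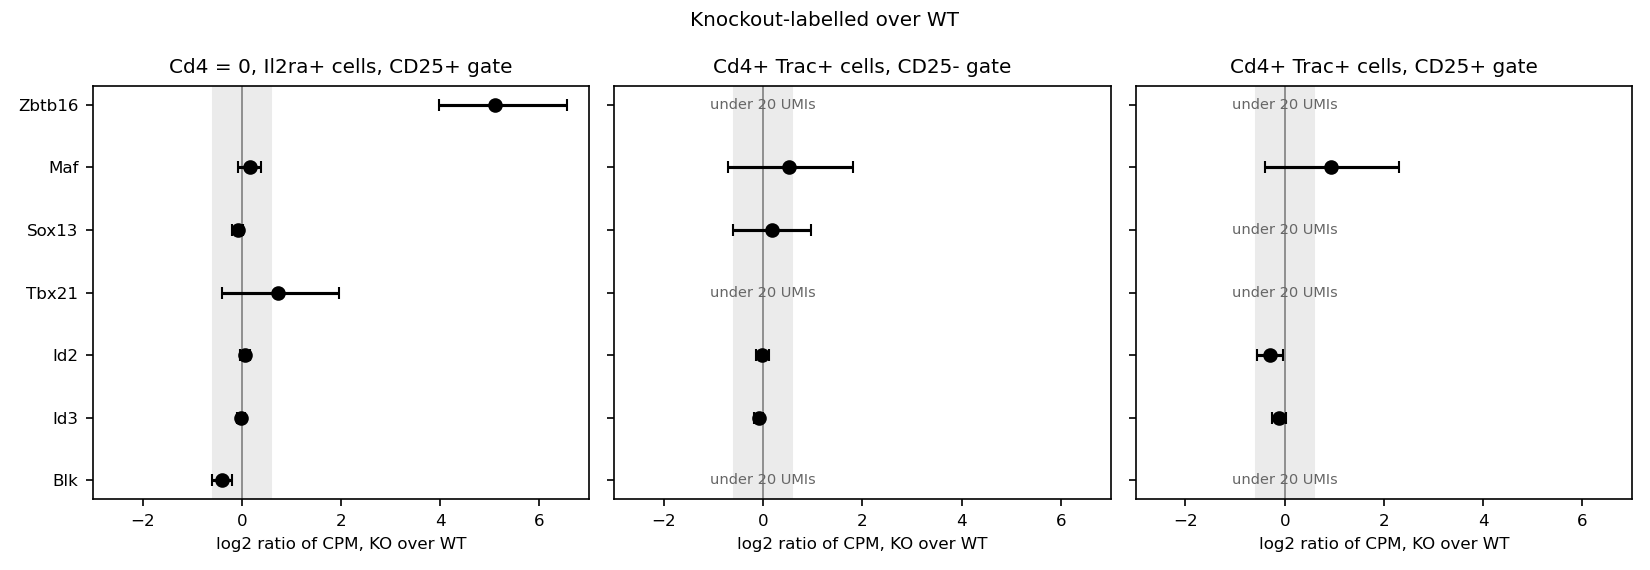
Log2 ratio of knockout-labelled over WT CPM for the factors in each class and gate (horizontal axis); points are ratios and bars 95% counting intervals. Zbtb16 in Cd4-negative cells is at 5.10, whereas Id2, Id3 and Sox13 in those cells lie between -0.08 and 0.07.

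Co-detection was read as the number of cells with a UMI of both genes, beside the number that the product of the shares gives, for the 21 pairs of members. With cells thinned to 1500 UMIs, Maf and Id3 were found together in 16 knockout-labelled Cd4-negative cells where the product gives 3.54, an odds ratio of 5.72 (3.03 to 10.2). In WT they were together in 3 cells where the product gives 2.56, an odds ratio of 1.18 (0.234 to 3.72). The pair thus met more often than the product in the knockout-labelled library, and the difference between the libraries was not tested. At 3000 UMIs the counts were 46 against 10.7 (odds ratio 6.76, 4.53 to 10.0) and 11 against 7.19 (1.63, 0.772 to 3.13). Without thinning, both libraries showed an excess, 124 cells against 45.1 and 61 cells against 31.7 in WT (odds ratio 2.48, 1.78 to 3.44). Among knockout-labelled cells without Rag1, where both genes are higher, 15 cells held both at 1500 UMIs against 5.21 from the product, an odds ratio of 3.76 (1.90 to 7.11).

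The co-detection of Id2 and Id3 depended on the depth read. At 1500 UMIs they met in 16 WT cells against 17.5 from the product and in 18 knockout-labelled cells against 24.5, and both odds ratio intervals include 1. At 3000 UMIs they met in 28 WT cells against 41.4 (odds ratio 0.634, 0.411 to 0.943) and in 44 knockout-labelled cells against 58.9 (0.708, 0.503 to 0.975). Without thinning the counts were 178 against 175 in WT and 274 against 259.6 in the knockout-labelled library, so an interval below 1 was seen at 3000 UMIs only. Zbtb16 shared few cells with Maf: 4 knockout-labelled cells held both without thinning, against 7.31 from the product, with an interval of the odds ratio that includes 1 (0.142 to 1.40). Zbtb16 and Sox13 shared 67 cells against 37.0 without thinning. At 3000 UMIs they shared 6 against 6.22, too few cells to show if an excess of that size remained. The part of depth in it was not tested. None of the 5 WT cells with Zbtb16 had a UMI of another member.

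**Figure D4:**
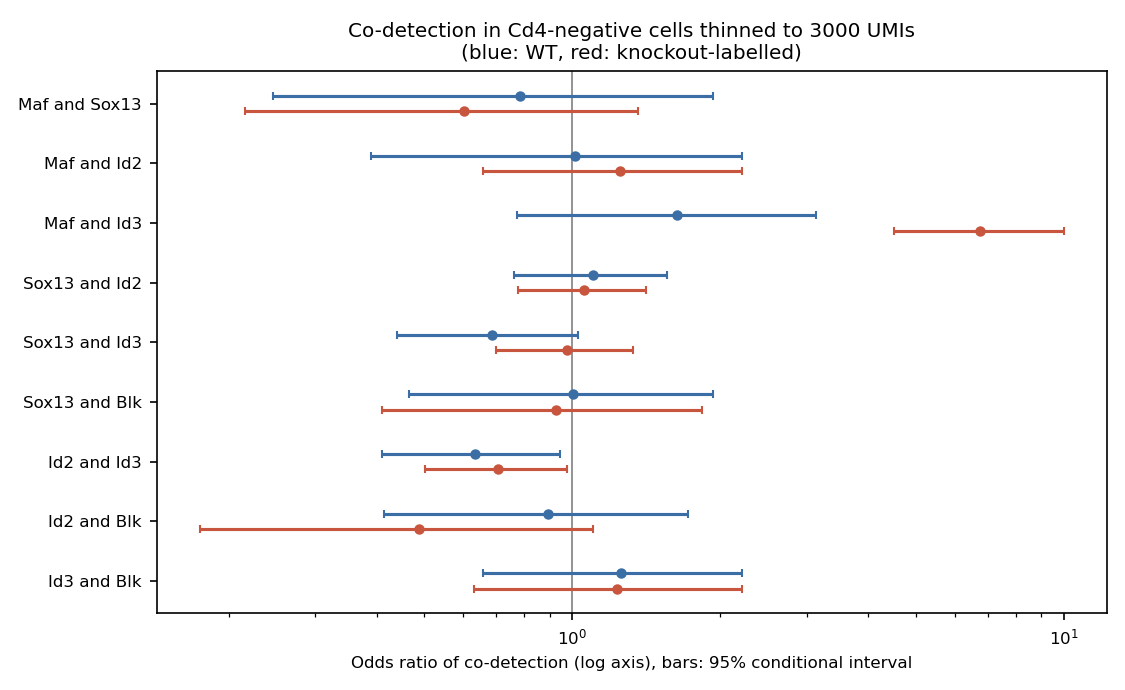
Odds ratio of co-detection (horizontal log axis) for 9 pairs of factors in Cd4-negative cells thinned to 3000 UMIs, in WT and knockout-labelled libraries. Pairs with Zbtb16 are left out, and bars are 95% conditional intervals. Maf with Id3 in the knockout-labelled library is at 6.76, and Id2 with Id3 lies below 1 in both libraries.

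The genes most like each member were ranked by how much higher they were in its positive than in its negative cells, taking the smaller of the values of both libraries. For Maf the first 5 were Ccl4, Nab2, Trbv15, Fhl2 and Pdcd1, and for Id3 they were Pdcd1, Trbv13-1, Trbv5, Nab2 and Trbv15. Pdcd1, the gene of the label, was at 27.6 CPM in WT cells with Id3 and at 5.97 CPM in those without, and at 34.5 and 7.37 CPM in the knockout-labelled library. Ccl4, a chemokine gene, stood at 119 CPM in WT cells with Maf against 22.6 CPM without, and at 80.5 against 6.59 CPM under the knockout label. For Id2 the first 5 were the mitotic genes Ube2c, Cenpa, Aspm, Cenpf and Plk1. For Sox13 they were Hbb-bt, Igfbp4, Trbv23, Ung and Cst7, and for Blk Trbv17, Cdkn3, Cpa3, Hist1h2bk and Rrm2. Positive cells were deeper than negative ones for each of these members in both libraries. In the knockout-labelled library the medians were 8093 and 6116 UMIs for Maf, 10672 and 5788 for Id3, and 7132 and 5977 for Id2. For Sox13 they were 8341 and 5877, and for Blk 9843 and 6047. The part of depth in the rankings was not tested, and the rankings are descriptions with 1 library per label.

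Cells with Cd4 and Trac held few transcripts of 4 of the members. Zbtb16 had 0 UMIs in WT CD25- cells (up to 0.432 CPM at 3 UMIs), 2 UMIs in knockout-labelled CD25-, 3 UMIs in WT CD25+ and 1 UMI in knockout-labelled CD25+ cells, each from at most 1 cell. Blk had 0 UMIs in both CD25- libraries (up to 0.432 and 0.489 CPM), 3 UMIs in WT CD25+ and 1 UMI in knockout-labelled CD25+ cells. For Blk, 0 of 1100 WT CD25- cells allows a share of cells with a UMI of up to 0.273% at a floor of 3 cells, which does not limit the share of cells that express the gene. Tbx21 had 1, 6, 6 and 6 UMIs in the same order of libraries. Zbtb16, Blk and Tbx21 differ by too few UMIs to be read between labels here, and Maf had 11, 14, 10 and 12 UMIs.

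Id2 and Id3 were detected in all 4 libraries of these cells. Id3 was at 307 CPM in WT CD25- (2131 UMIs), 288 CPM in knockout-labelled CD25- (1767 UMIs), 302 CPM in WT CD25+ (1180 UMIs) and 280 CPM in knockout-labelled CD25+ cells (685 UMIs). It was found in 50.8% to 56.2% of cells, and its CD25+ over CD25- ratio was 0.983 in WT and 0.971 with the knockout label. Id2 was at 150, 148, 87.9 and 71.9 CPM in the same order, and lower in the CD25+ gate with both labels. Sox13 was at 4.32 CPM (30 UMIs) and 4.89 CPM (30 UMIs) in the CD25- libraries and at 1.53 CPM (6 UMIs) and 1.22 CPM (3 UMIs) in the CD25+ ones.

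Between labels, none of the members that reached 20 UMIs was called in these cells. In the CD25- gate 4 of 7 reached it, where 4.67% of all genes were called higher and 1.93% lower, with ratios of 1.44 for Maf (0.608 to 3.51), 1.13 for Sox13 (0.660 to 1.94), 0.988 for Id2 (0.903 to 1.08) and 0.939 for Id3 (0.881 to 1.00). In the CD25+ gate 3 of 7 reached it, where 3.85% of genes were higher and 3.99% lower, with ratios of 1.92 for Maf (0.759 to 4.95), 0.818 for Id2 (0.678 to 0.983) and 0.928 for Id3 (0.843 to 1.02). With at least 2 Cd4 UMIs required, the log2 ratio of Id2 moved from -0.29 to 0.00.

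Between gates, Id2 and Sox13 were lower in CD25+ than in CD25- cells with both labels, 2 of the 4 members that reached 20 UMIs. Of all genes, 5.6% were lower and 8.96% higher in WT, and 10.1% lower and 10.5% higher in the knockout-labelled pair. Id2 was at a ratio of 0.586 (0.518 to 0.663) in WT and 0.485 (0.411 to 0.571) in the knockout-labelled pair. Sox13 was at 0.355 (0.121 to 0.867) and 0.25 (0.0489 to 0.805). The Sox13 values rest on 6 and 3 UMIs, and with doublets kept the WT log2 ratio is -0.18 and the knockout-labelled one -0.47, neither of them called.

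**Figure D5:**
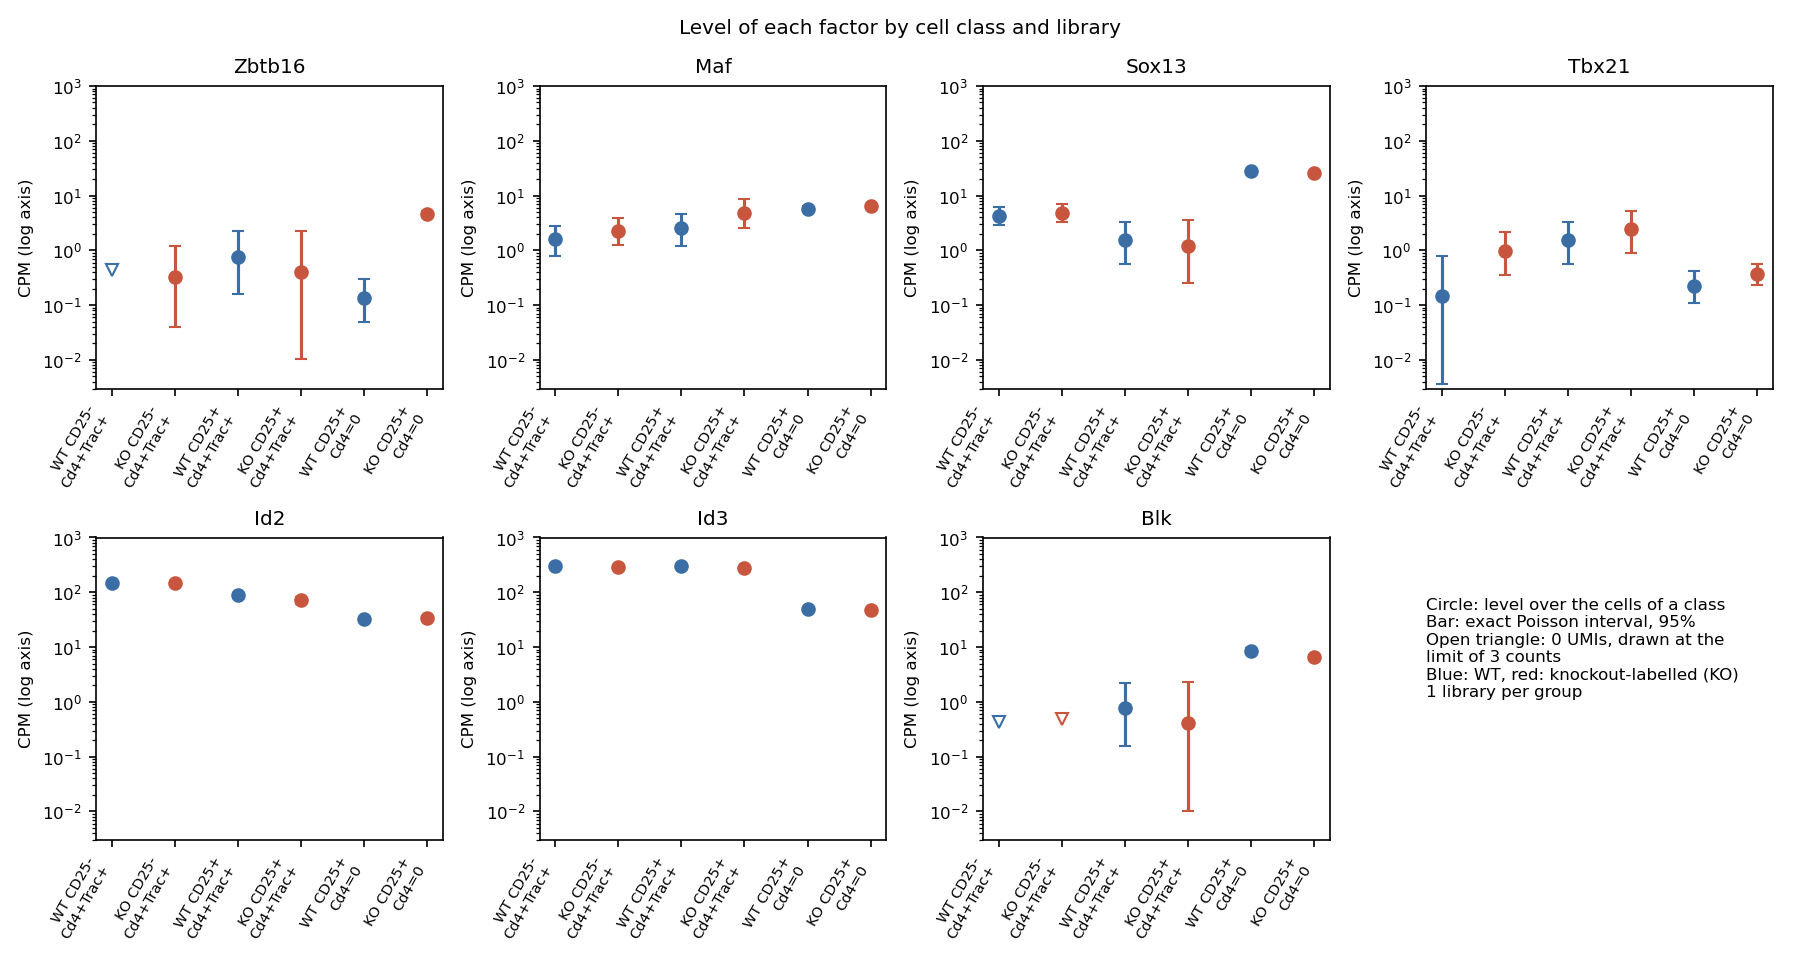
Level of each factor (CPM, log axis, one panel per gene) in Cd4-negative cells of the CD25+ gate and in cells with Cd4 and Trac of each library; points are sums over cells and bars 95% Poisson intervals. Zbtb16 is higher in knockout-labelled Cd4-negative cells than in the other groups, Sox13 and Blk are higher in Cd4-negative cells, and Id3 is higher in cells with Cd4 and Trac.

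Within each CD25+ library the classes differed in most members. Against the WT background of 23.4% of genes higher and 14.3% lower in Cd4-negative cells, 3 of the 5 members that reached 20 UMIs were higher and 2 lower. Sox13 was 18.0-fold higher (8.26 to 49.2), Blk 11.1-fold (3.79 to 54.3) and Maf 2.24-fold (1.20 to 4.73), whereas Id2 was at a ratio of 0.376 (0.334 to 0.424) and Id3 at 0.163 (0.151 to 0.175). In the knockout-labelled library 18.9% of genes were higher and 12.2% lower, and of the 7 members 3 were higher and 3 lower. Sox13 was 21.3-fold higher (7.29 to 104), Zbtb16 11.4-fold (2.04 to 453) and Blk 15.9-fold (2.84 to 630), the last 2 against 1 UMI each. Id2 was at 0.481 (0.412 to 0.564), Id3 at 0.173 (0.159 to 0.188) and Tbx21 at 0.153 (0.0606 to 0.460), while the Maf interval included 1. With doublets kept the Zbtb16 log2 ratio is 1.23 in place of 3.51.

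The lists of related genes were read in Cd4-negative cells as ratios of knockout-labelled over WT, where 5.53% of all genes were higher and 4.58% lower. For the gamma-delta receptor genes, 10 of 13 that reached 20 UMIs were lower and none was higher, with a median log2 ratio of -0.75 beside -0.04 over all genes. Tcrg-C1 was at a ratio of 0.483 and Tcrg-C2 at 0.401, while Trdc was at 0.983. Of the interleukin 17 type list, 2 of 13 were higher, Etv5 (1.94, 1.51 to 2.51) among them, and 1 was lower, Ccr2 at 0.241. The median log2 ratio of this list was -0.02. The list itself holds the members Blk, Maf and Sox13, so it is not separate from them. Of the type 1 list, Gzma (1.57) was higher and Ccl5 (0.271) lower among 10 genes, and of the innate-like alpha-beta list 1 of 17, Tox2 (0.660), was lower. The E protein and Id family (0 of 4), the E protein targets (0 of 9) and the alpha-beta receptor genes (0 of 9) held no called gene. Tcf12, the E protein HEB, was at 1.11, Tcf3 (E2A) at 1.03 and Tcf4 at 0.904.

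In cells with Cd4 and Trac of the CD25+ gate, 3.85% of all genes were higher and 3.99% lower in the knockout-labelled library. Of the E protein targets 6 of 9 were higher there, Ptcra at 11.7-fold and Rag1 at 3.36-fold. The median log2 ratio of that list was 1.51. For the gamma-delta receptor list 7 of 9 were higher and 1 lower. Early double-negative markers summed to 458 CPM in these knockout-labelled cells and to 321 CPM in WT, with all 7 detected in both. Most of the sums came from Il2ra (177 and 175 CPM), the gene of the CD25 gate, and from Cd24a (150 and 108 CPM). Ptcra was at 29.8 against 2.56 CPM and Dntt at 70.2 against 25.6 CPM, and Rag1, Notch3 and Hes1 were also higher with the knockout label. The part of early double-negative cells in these ratios was not tested. Of the members only Id2, Id3 and Maf reached 20 UMIs in this class and gate, with the ratios given above. The type 1 list had 3 of 7 genes higher, and the innate-like list 2 of 13 higher and 1 lower. In the CD25- gate, 4.67% of all genes were higher and 1.93% lower. There 2 of 16 innate-like genes (Plac8 and Egr2) were higher, 2 of 8 of the type 1 list were higher and 1 lower, 2 of 8 of the interleukin 17 type list were higher, and 2 of 4 gamma-delta receptor genes were higher. The 9 myeloid and dendritic cell markers summed to 109.6 CPM in WT (6 detected, with Csf1r, Itgax and Siglech at 0) and to 148 CPM in these knockout-labelled cells (8 detected, Lyz2 at 0). Siglech, of plasmacytoid dendritic cells, which also express Plac8, went from 0 to 33 UMIs and Tyrobp from 1 to 65 UMIs. Their part in the result was not tested.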

How the data were processed

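The authors deposited, for each of the 4 libraries, whole-number UMI counts per gene and barcode from the 10x Genomics 5′ kit v2, not normalized. The submitters' processing notes give Cell Ranger 6.2.1 and mm10, whereas version 6.1.2 stands in the files, per the file headers. Neither source gives the annotation or strand setting of the counting. Gene positions were taken from GENCODE vM21 (mm10), where 32235 of 32285 identifiers and 7 of 7 members were found.

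Barcodes with under 500 genes or with 10% or more mitochondrial UMIs were left out, and Scrublet doublets (scanpy 1.11.5) were removed at 0.8% per 1000 deposited barcodes. This kept 2985 WT CD25- cells (13580881 UMIs), 1716 knockout-labelled CD25- cells (11159298), 7649 WT CD25+ cells (54064164) and 9236 knockout-labelled CD25+ cells (68989300). Sums of UMIs over the cells of a class were scaled to CPM over all genes. Levels have exact Poisson intervals, ratios exact conditional binomial intervals, shares Clopper-Pearson intervals and co-detection exact conditional odds ratio intervals, all at 95%. Zero counts were set to a floor of 3 UMIs for bounds. With 1 library per group no test was run and no p-value is given. Genes entered a comparison at 20 or more UMIs over both sums and were called at 1.5-fold with an interval excluding 1. The scripts were tested on simulated data.

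The 7 genes, the 7 lists and the 9 marker lists were chosen with earlier results of these data known. The text names the 7 genes in full, the highest and lowest or called members of a list, and the first 5 like genes per member (at least 50 positive cells in both libraries and 50 UMIs, with 5 CPM added). The alternatives were keeping doublets, a stricter cell filter, equal weight per cell, another floor on UMIs, other class rules and other thinning. The values of some list and marker genes are not reported here.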

Additional observations from a re-analysis of the deposited data

Results flagged for a closer look

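Among Cd4-negative Il2ra-positive cells of the CD25+ gate, the CPM ratios of Maf and Id3 stood on opposite sides of 1 in the 2 groups made by Rag1. The knockout-labelled over WT ratio of Maf was 1.40 in cells without a Rag1 UMI and 0.699 in cells with one. For Id3 it was 1.08 and 0.839. With cells thinned to equal depth, the intervals of the shares with a Maf UMI overlapped between the labels. Without Rag1 these shares were 1.31% (0.860 to 1.92) in WT and 2.04% (1.54 to 2.66) with the knockout label. With Rag1 they were 0.548% (0.340 to 0.837) and 0.351% (0.208 to 0.554). The Id3 intervals overlapped without Rag1 but not with Rag1, at 3.52% (2.96 to 4.16) in WT and 2.48% (2.07 to 2.94). The difference between the groups was not tested, since each label has 1 library. Knockout-labelled cells without Rag1 had a median of 6112 UMIs against 5598 in WT, and those with Rag1 a median of 6183 against 6178.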

How the results depend on the processing

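No paired analysis was possible because each group has 1 library and the labels carry no replicate numbers, and for the same reason no library could be left out in turn. Of 251 log2 ratios of members under alternatives, 226 stayed within counting error of the reported value and 25 moved. None changed direction where the interval of the reported ratio excludes 1. Changes of direction in the other ratios were not counted. The log2 ratio of Zbtb16 in Cd4-negative cells, 5.10, ranged from 4.91 to 5.75. The number of members lower in CD25+ than CD25- cells with Cd4 and Trac fell from 2 to 1 in WT with doublets kept, with cells weighted equally and with at least 100 UMIs, and from 2 to 1 in the knockout-labelled pair with doublets kept and with at least 100 UMIs. With cells weighted equally, 1 member in place of 0 was higher in the CD25+ gate between labels and 1 in place of 0 between the knockout-labelled gates: Maf, at log2 ratios of 1.62 and 1.72. Calls with equal weights use the interval of the summed UMIs, moved along with the ratio, and not an interval of their own. For Maf they rest on 12 UMIs in knockout-labelled CD25+ cells with Cd4 and Trac, against 10 in WT CD25+ and 14 in knockout-labelled CD25- cells. In these cells, the genes lower between labels in the CD25- gate went from 210 to 353 with equal weights and to 116 with at least 100 UMIs. That minimum, which tests fewer genes, also took the genes higher there from 507 to 287, those in the CD25+ gate from 391 to 180 higher and 405 to 236 lower, and those higher in the WT CD25+ gate than in its CD25- gate from 955 to 617. The log2 ratio of Id3 in Cd4-negative cells went from -0.02 to -0.15 with equal weights. Depth limits Tbx21 throughout, and Zbtb16 and Blk in cells with Cd4 and Trac.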

Other observations

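Genes on either side of Zbtb16 and the genes with the highest ratios in Cd4-negative cells were read after the data had been seen. Within 500 kb of Zbtb16 on chromosome 9, 7 genes had at least 20 UMIs over both libraries. Nxpe2 had 43 UMIs in the knockout-labelled and 1 UMI in the WT library (31.0-fold, 5.28 to 1254) at a distance of 301 kb, and Nxpe4 had 20 and 1 (14.4-fold, 2.31 to 598) at 254 kb. The other 5 were closer to Zbtb16 than these, with ratios of 0.751 for Rexo2 (174 kb), 0.902 for Rbm7 (159 kb), 1.29 for Gm5617 (158 kb), 0.995 for Usp28 (149 kb) and 0.904 for Zw10 (219 kb). By ratio, Zbtb16 stood among Slc25a31 (48 and 0 UMIs), Oas1g (230 and 2) and Gm4951 (581 and 12), and Nxpe2 was among the same first 10.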
